A study of Mus musculus with 4 samples.

Results

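The JUN and BATF families are basic leucine zipper transcription factors, and 6 of their genes were examined here: Jun, Junb and Jund, and Batf, Batf2 and Batf3. They were chosen by gene symbol, and each of the 6 had a row among the 31748 gene symbols counted. The libraries are labelled as CD4+ T cells from mouse spleen, of genotype TEaWT (WT, 2 libraries) or TEaMthfd2 KO (KO, 2 libraries). By the labels, magnetic beads (MACS, positive selection) took the T cells from mice of 8 weeks, and all groups then spent 3 days in culture with mitomycin-treated antigen-presenting cells (APCs) from spleens of F1 (BALB/c x C57BL/6) mice of the same age. TEa is a transgenic T cell receptor that recognizes a foreign MHC peptide which such F1 cells present. Mthfd2 encodes a folate-dependent enzyme of mitochondria, and the comparison asks how its loss changes transcripts in T cells that respond to foreign tissue. The labels give neither the part of Mthfd2 removed, nor the cells that lack it, nor whether replicates are different mice or wells, so p-values reflect only how far these libraries differ from each other, possibly for technical reasons.

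JUN proteins pair with each other or with FOS proteins to form the AP-1 transcription factor, which is induced when the T cell receptor and its costimulators signal. BATF proteins have a zipper but no activation domain of the kind JUN proteins have. They pair with JUN proteins and, in lymphocytes, bind together with IRF4 or IRF8 at composite DNA sites. BATF with JUNB is known for its part in T helper 17 cells, and BATF3 for the development of the dendritic cells that cross-present antigen.

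Among these genes, Jun, Batf2 and Batf3 were lower in both KO-labelled libraries than in both WT-labelled ones, Junb and Jund were higher in both, and the groups overlapped for Batf. Jun averaged 2.83 times as high in WT-labelled as in KO-labelled libraries. None of the 6 differences passed the threshold of the edgeR quasi-likelihood test (adjusted p under 0.05 over all 12752 genes tested), which 3.95% of the genes tested did, and Jun missed it narrowly (adjusted p = 0.051). At an unadjusted p under 0.05 stood Jun, Batf3 and Batf2 on the lower side, where 12.7% of all genes tested stood, though Batf2 reached the filter on low counts in the WT-labelled libraries alone. Also at that p stood 1 member (Jund) on the higher side, where 12.8% stood. Both KO-labelled libraries lay below both WT-labelled libraries for 30.1% of all genes tested and above them for 29.8%, so the separation of the groups in 5 of the 6 members is common in these data, where 59.9% of genes had groups that did not overlap.

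The promoters of Jun and Batf3, which were lower, and of Junb, the most abundant member, are shown for what they do and do not share. Each runs from 250 bases before to 50 bases after the gene start in RefSeq (GRCm38.p6), 5′ to 3′ on the strand of the gene. Capitals mark matches to the motifs searched. Jun lies at chr4:95052173-95052472 on the minus strand, Batf3 at chr1:191098164-191098463 on the plus strand and Junb at chr8:84978699-84978998 on the minus strand.
Jun: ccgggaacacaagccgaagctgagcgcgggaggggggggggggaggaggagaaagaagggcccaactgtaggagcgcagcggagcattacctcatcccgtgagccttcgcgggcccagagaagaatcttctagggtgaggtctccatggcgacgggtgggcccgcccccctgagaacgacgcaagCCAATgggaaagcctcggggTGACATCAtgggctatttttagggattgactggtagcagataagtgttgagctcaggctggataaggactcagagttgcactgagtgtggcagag
Batf3: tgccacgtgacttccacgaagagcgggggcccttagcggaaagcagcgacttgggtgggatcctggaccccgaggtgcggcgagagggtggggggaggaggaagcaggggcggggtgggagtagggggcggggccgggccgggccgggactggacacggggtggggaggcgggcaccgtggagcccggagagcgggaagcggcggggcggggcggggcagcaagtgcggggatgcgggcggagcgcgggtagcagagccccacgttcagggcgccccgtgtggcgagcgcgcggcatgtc
Junb: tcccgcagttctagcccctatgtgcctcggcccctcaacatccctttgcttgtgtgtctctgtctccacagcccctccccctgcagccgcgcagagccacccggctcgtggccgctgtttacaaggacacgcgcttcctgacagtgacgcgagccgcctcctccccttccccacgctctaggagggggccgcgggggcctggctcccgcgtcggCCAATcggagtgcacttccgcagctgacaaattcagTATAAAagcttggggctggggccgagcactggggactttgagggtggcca

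The motifs, searched on both strands, were the AP-1 site TGANTCA, the cyclic AMP response element TGACGTCA, the variant AP-1 site TGACATCA, the AP-1 site directly after GAAA and the AP-1 site after TTTC and 4 bases of any kind (composite sites with an IRF part, which overlap the first motif), TATAAA and CCAAT. The promoter table held 5 of the 6 members, all but Batf2. The variant site TGACATCA was present in Jun, from base -45 to -38 before the gene start, and in 3.62% of 32851 promoters of the same length. TGANTCA was in 7.81% of those promoters, TGACGTCA in 1.79%, the composite site with GAAA in 0.125% and that with TTTC in 0.119%, and these letters were not found in the windows of the 5 members. The windows follow the RefSeq starts, which can differ from the gene positions given below. That of Jund (chr8:70697489-70697788) ends before the gene position given below, and that of Batf3 begins after the first base given there. CCAAT was present in Jun and Junb (37.4% of all promoters). TATAAA was present in Junb (13.6%), at bases 1 to 6 after the RefSeq start. The start of Junb by the gene position given below (base 84978718, minus strand) lies within this window, downstream of the RefSeq start. Measured from that base, the TATAAA lies before the start. Batf, Batf3 and Jund held none of the motifs searched. The GC content was 75.7% in Batf3, 65.3% in Junb, 60.0% in Jun, 49.7% in Batf and 46.7% in Jund. The median over all promoters was 52.7%. A match is a description of the letters and not evidence of binding.

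Library totals ranged from 14191401 to 15955863 counts. Mthfd2, the targeted gene, stood at 280 and 280 CPM (counts scaled to a common library size) in WT-labelled and at 222 and 252 CPM in KO-labelled libraries (log2 fold change -0.24 ± 0.14 SE, edgeR adjusted p = 0.324), and counts over the whole gene cannot check a deletion of some exons, so directions rest on the labels. The CPM of Cd8a was 3.10 to 4.00 times that of Cd4 in all 4 libraries, although the cells are labelled CD4+. These values were not divided by gene length, so they give a ratio of counts and not of transcripts. On the first principal component (69.0% of the variance) the WT-labelled libraries lay far apart, replicate 1 at -65.1 and replicate 2 at -19.6, and the KO-labelled libraries at 43.8 and 40.9. Sums of markers of other spleen cells did not all move alike. Erythroid markers, led by Hba-a1, summed to 127 and 32.3 CPM in WT-labelled and to 6.86 and 3.08 CPM in KO-labelled libraries. Plasmacytoid dendritic cell markers, led by Bst2, summed to 287 and 180 CPM against 106 and 97.3 CPM. NK cell markers, led by Eomes, summed to 71.3 and 63.1 CPM against 52.75 and 62.9 CPM. Most of this sum was Eomes, at 64.2 and 57.0 CPM against 46.0 and 56.8 CPM. Of the 4 NK cell markers tested, 2 had a log2 fold change above 0 and 2 below. Ncr1 was among those below, at 2.75 and 2.70 CPM against 0.778 and 0.287 CPM. Klre1 was among those above, at 2.99 and 2.50 CPM against 5.30 and 3.15 CPM. Cd8a and Cd8b1 summed to 798 and 764 CPM against 947 and 1033 CPM. The 11 B cell markers summed to 1477 and 909 CPM in WT-labelled and to 532 and 473 CPM in KO-labelled libraries, and none was at 0. All 11 had a log2 fold change below 0, 10 stood lower at an edgeR unadjusted p under 0.05, and 5 passed the adjusted p threshold. The 7 genes of MHC class II presentation summed to 3900 and 2325 CPM against 1232 and 1068 CPM, with 6 of 7 lower by the test, and Cd74, the most abundant of them, stood at 1809.6 and 1100.0 CPM against 556 and 485 CPM. The 8 T cell markers in the tables, of 10 listed, summed to 1677 and 1861 CPM against 2646 and 2745 CPM, and Cd3d, Cd3e and Cd3g rose. Trbc2, the most abundant T cell marker, stood at 374 and 360 CPM against 532 and 563 CPM.

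Jun encodes c-Jun, the founding partner of FOS in AP-1. The gene has 1 exon and occupies bases 95049034 to 95052222 of chromosome 4, minus strand, in GRCm38 (ENSMUSG00000052684.4). WT replicates 1 and 2 had 2166 and 1090 counts, or 132 and 73.7 CPM, and KO-labelled replicates 1 and 2 had 608 and 414 counts, or 43.0 and 29.7 CPM. Both KO-labelled libraries were below the lower WT-labelled one, which was itself 1.71 times the higher KO-labelled one, while WT replicate 1 was 1.80 times WT replicate 2. The means were 103 ± 41.5 CPM for WT-labelled and 36.3 ± 9.41 CPM for KO-labelled libraries (SD, n = 2 each). The log2 fold change was -1.50 ± 0.32 (SE, 95% interval -2.26 to -0.75, edgeR unadjusted p = 0.00236, adjusted p = 0.051), and 3.03% of all genes tested had a lower one. DESeq2 called Jun lower (adjusted p = 0.000206, where 6.11% of genes were called lower), and so did edgeR with no filter on low counts (0.00394), while limma-voom did not (0.0513). DESeq2 called 6.7% of genes higher, and limma-voom called 2.95% higher, 1.7% lower and 4.65% in either direction. Without WT replicate 1 the value was -1.02 (adjusted p = 0.0623), and without WT replicate 2 it was -1.86 (adjusted p = 0.000757), in both cases with 1 WT-labelled library and a spread taken from the KO-labelled pair alone.

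The order of the libraries for Jun, from WT replicate 1 down to KO replicate 2, was also that of the summed B cell markers and of the summed MHC class II genes. Sums of the erythroid, plasmacytoid dendritic cell and both other dendritic cell marker lists had this order too, as did the 19 AP-1 partners. The share of all genes tested with this order was not counted. Ms4a1, the B cell marker with the highest mean level, stood at 312, 151, 90.1 and 80.0 CPM in the same libraries. The part of other cells in the Jun difference was not tested. In such bulk samples, fewer cells of a type and less RNA per cell cannot be told apart. The annotation also holds Junos, a gene on the opposite strand that overlaps Jun and has no row in the tables, and whether counting used strand is not given in the sources used here.

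Junb encodes the JUN protein best known as the partner of BATF in T cells, and it had the most counts of the members in every library. The gene occupies bases 84974484 to 84978718 of chromosome 8, minus strand (ENSMUSG00000052837.6). WT-labelled libraries had 4458 and 3567 counts, or 272 and 241 CPM, and KO-labelled libraries had 5064 and 3831 counts, or 358 and 275 CPM. KO replicate 2 was barely above WT replicate 1, and KO replicate 1 stood apart from the other 3. The log2 fold change was 0.30 ± 0.18 (SE, 95% interval -0.12 to 0.72, edgeR adjusted p = 0.322), and the interval lies above that for Jun. It was 0.10 without KO replicate 1 and 0.48 without KO replicate 2. Prdx2, a peroxiredoxin gene on the opposite strand with 1388 to 1721 counts per library, overlaps the end of the annotated Junb model.

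Jund encodes JunD, a JUN protein often expressed without stimulation. It lies on the plus strand of chromosome 8 (70698949 to 70700616, ENSMUSG00000071076.6). WT-labelled libraries had 1712 and 1327 counts, or 105 and 89.7 CPM, and KO-labelled libraries had 1873 and 1749 counts, or 132 and 125 CPM. The groups did not overlap, and the libraries of each group lay close together. The means were 97.1 ± 10.5 and 129 ± 4.98 CPM (SD, n = 2 each), and the log2 fold change was 0.41 ± 0.16 (SE, 95% interval 0.03 to 0.78, edgeR unadjusted p = 0.0372, adjusted p = 0.169). Gm11175, a gene on the opposite strand within Jund, has no row in the tables.

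**Figure D1:**
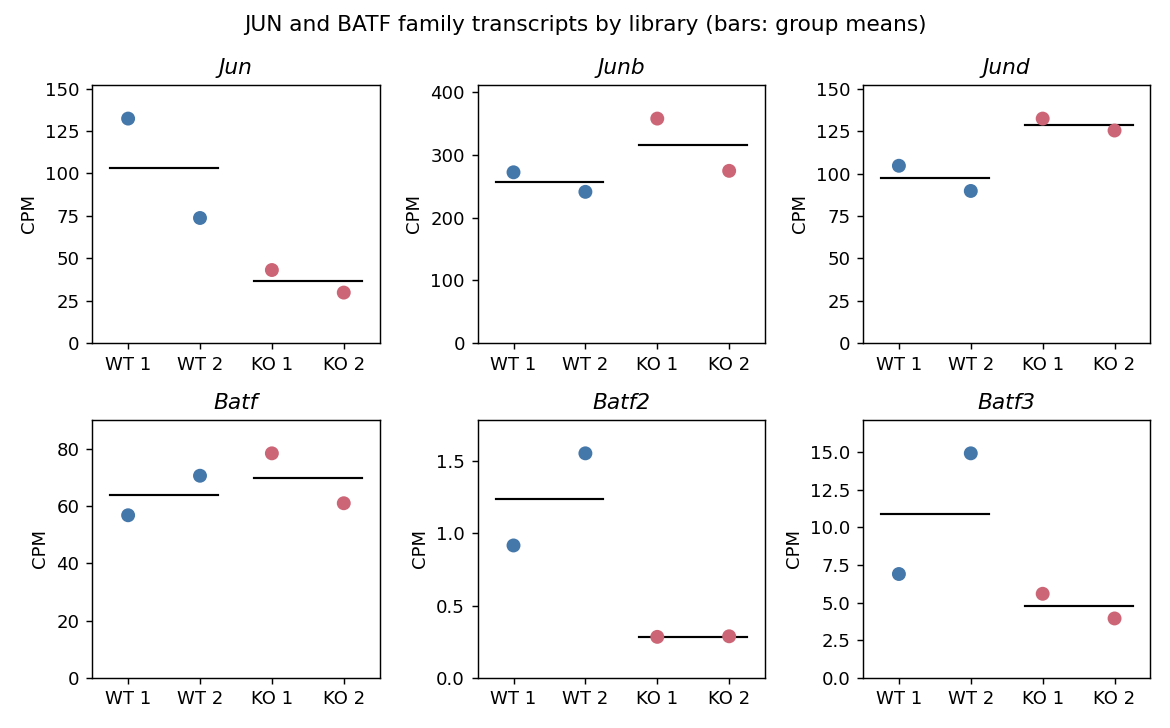
Level of each member in CPM (vertical axes from 0, different scales) in the 2 WT-labelled (blue) and 2 KO-labelled (red) libraries, with a bar at each group mean. Jun, Batf2 and Batf3 lie lower in both KO-labelled libraries, Junb and Jund higher, and Batf overlaps between groups.

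Batf is the BATF member best known in T and B cells. It lies on the plus strand of chromosome 12 (85686669 to 85709087, ENSMUSG00000034266.6). WT-labelled libraries had 931 and 1046 counts, or 56.9 and 70.7 CPM, and KO-labelled libraries had 1111 and 852 counts, or 78.6 and 61.1 CPM. The groups overlapped, with the lowest value in WT replicate 1 and the highest in KO replicate 1. The log2 fold change was 0.13 ± 0.20 (SE, 95% interval -0.34 to 0.60, edgeR adjusted p = 0.72), so differences between these bounds are within the error. Without WT replicate 1 (-0.014) or without KO replicate 1 (-0.058) its sign turned.

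Batf3 pairs with JUN proteins in dendritic cells and is also expressed in activated T cells. It lies on the plus strand of chromosome 1 (191097847 to 191108945, ENSMUSG00000026630.9). WT-labelled libraries had 113 and 221 counts, or 6.90 and 14.9 CPM, and KO-labelled libraries had 79 and 55 counts, or 5.59 and 3.94 CPM. WT replicate 2 was 2.16 times WT replicate 1, whereas WT replicate 1 was only 1.24 times KO replicate 1, so WT replicate 2 stood apart from the other 3 libraries. The log2 fold change was -1.19 ± 0.44 (SE, 95% interval -2.24 to -0.14, edgeR unadjusted p = 0.0315, adjusted p = 0.156). It was -0.53 (adjusted p = 0.427) without WT replicate 2 and -1.64 (adjusted p = 0.0546) without WT replicate 1.

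The order of the WT-labelled libraries for Batf3 was opposite to that of the B cell and MHC class II sums. The 8 markers of the dendritic cells that need BATF3 summed to 982 and 601 CPM in WT-labelled and to 365 and 351 CPM in KO-labelled libraries, led by Irf8, which B cells express as well. Of the 5 tested, Wdfy4 fell and 3 had a log2 fold change above 0, with a median of 0.48. Clec9a had at most 0.122 CPM and Cadm1 at most 0.0717 CPM in a library. Tlr3, too low to be tested, had 14 and 2 counts in WT-labelled and 0 and 0 counts in KO-labelled libraries. Xcr1 stood between 0.717 and 2.83 CPM, Naaa between 5.34 and 10.3 CPM and Itgae between 8.17 and 20.0 CPM, each highest in KO replicate 1. The 8 general dendritic cell markers summed to 960 and 497 CPM against 475 and 418 CPM. Of the 7 tested, 6 had a log2 fold change below 0 (median -1.40) and Ccl22 fell, while Ccr7, the most abundant, stood at 526 and 235 CPM against 338 and 321 CPM. The part of these cells in the Batf3 difference was not tested.

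Batf2, a member induced by interferon gamma in macrophages, was close to the limit of detection. It lies on the plus strand of chromosome 19 (6140983 to 6172476, ENSMUSG00000039699.14). WT-labelled libraries had 15 and 23 counts, or 0.916 and 1.55 CPM, and KO-labelled libraries had 4 and 4 counts, or 0.283 and 0.287 CPM. Batf2 passed the filter on low counts only through the WT-labelled libraries, where it was higher. Its log2 fold change was -2.08 ± 0.73 (SE, 95% interval -3.82 to -0.34, edgeR unadjusted p = 0.0256, adjusted p = 0.141). From the 38 counts of the WT-labelled and 8 of the KO-labelled libraries together, the ratio was 0.234 with a 95% interval of 0.0941 to 0.508 that covers counting error only. The 12 macrophage and monocyte markers summed to 14.7 and 7.71 CPM in WT-labelled and to 5.73 and 6.45 CPM in KO-labelled libraries. Of the 3 that were tested, none was called. Lyz2 stood at 4.70 and 1.55 CPM against 0.283 and 0.287 CPM (-3.42, edgeR unadjusted p = 0.00384, adjusted p = 0.0605), with the same 4 counts as Batf2 in each KO-labelled library, and Cd68, the most abundant, between 4.59 and 5.50 CPM in the 4 libraries. C1qa and Fcgr1 had 0 counts in each library, and Csf1r had at most 0.424 CPM. The part of such cells in the Batf2 difference was not tested. The start of the annotated Batf2 model overlaps Arl2 on the opposite strand, which had 325 to 462 counts per library.

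**Figure D2:**
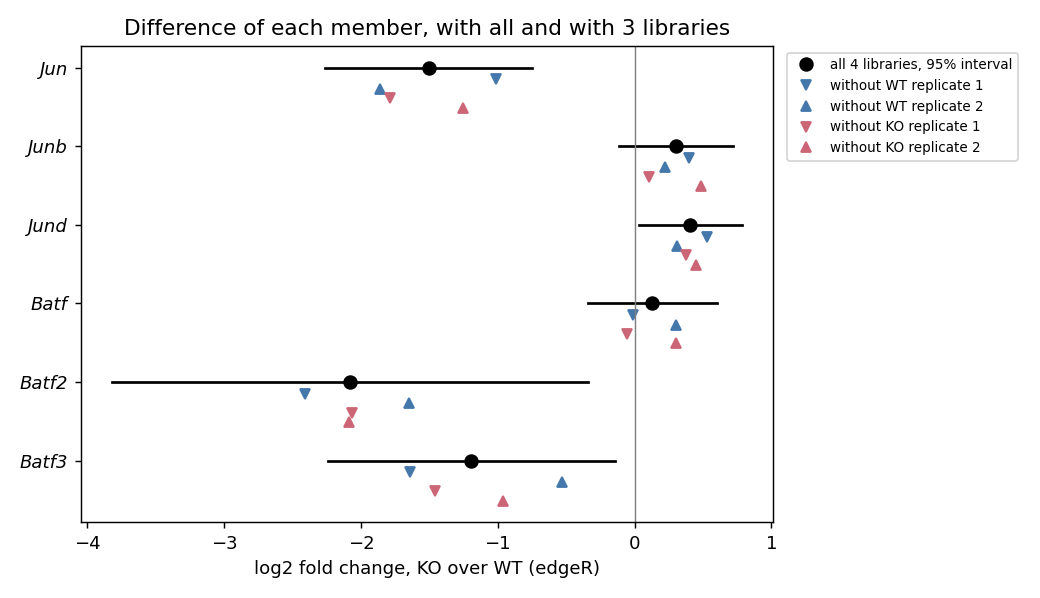
Log2 fold change of KO-labelled over WT-labelled libraries for each member (horizontal axis) with all 4 libraries (black, 95% interval) and with each library left out (triangles). The intervals for Jun (-2.26 to -0.75) and Junb (-0.12 to 0.72) do not overlap, and the Batf3 value runs from -1.64 to -0.53 with the library left out.

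Levels of different genes were compared per kilobase of annotated exon, as CPM per kilobase (RPKM). In WT replicate 1, Junb stood at 118, Jund at 62.7, Jun at 41.5, Batf at 40.5, Batf3 at 4.32 and Batf2 at 0.363 RPKM. In WT replicate 2, Junb (105), Jund (53.8) and Batf (50.3) came before Jun (23.1), Batf3 (9.35) and Batf2 (0.617). In KO-labelled libraries the order was Junb (156 and 119), Jund (79.4 and 75.2), Batf (55.9 and 43.4), Jun (13.5 and 9.31), Batf3 (3.50 and 2.47) and Batf2 (0.112 and 0.114). Junb was thus first in all 4 libraries and Batf2 last. In the WT-labelled group Jun and Batf did not differ beyond their spread over libraries. In the KO-labelled group the lowest Batf value was above the highest Jun value.

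Within the JUN family, the share of Jun in the summed RPKM was 18.6% and 12.7% in WT-labelled and 5.43% and 4.57% in KO-labelled libraries. Junb held 53.2% and 57.7% against 62.6% and 58.6%, and Jund 28.2% and 29.6% against 32.0% and 36.9%. Junb was 2.85 and 4.54 times Jun per length in WT-labelled and 11.5 and 12.8 times in KO-labelled libraries. The difference in this ratio was 1.76 on the log2 scale (two-sided exact permutation test over libraries, p = 0.333, the smallest p that 2 against 2 libraries allow). Junb stood at 1.59 to 1.96 times Jund in all 4 libraries (difference -0.12, exact permutation p = 1.0), by a ratio that depends on the length used. It was 2.02 to 2.49 with the longest annotated transcript and 3.43 to 4.23 with RefSeq gene spans.

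Within the BATF family, Batf held 89.6% and 83.5% of the summed RPKM in WT-labelled and 93.9% and 94.4% in KO-labelled libraries. Batf3 held 9.58% and 15.5% against 5.88% and 5.36%, and Batf2 at most 1.02% of the sum in each library. The Batf to Batf3 ratio was 9.36 and 5.38 in WT-labelled and 16.0 and 17.6 in KO-labelled libraries (log2 difference 1.24, two-sided exact permutation p = 0.333, again the smallest possible). These shares depend on the gene models, since the annotation release the authors counted on is not given in the sources used here. With the RefSeq spans of the JUN genes as lengths, Jund stood at 36.3 RPKM in WT replicate 1, below Jun at 41.5. The share of Jun was then 18.4% and 12.5% against 5.31% and 4.61%.

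**Figure D3:**
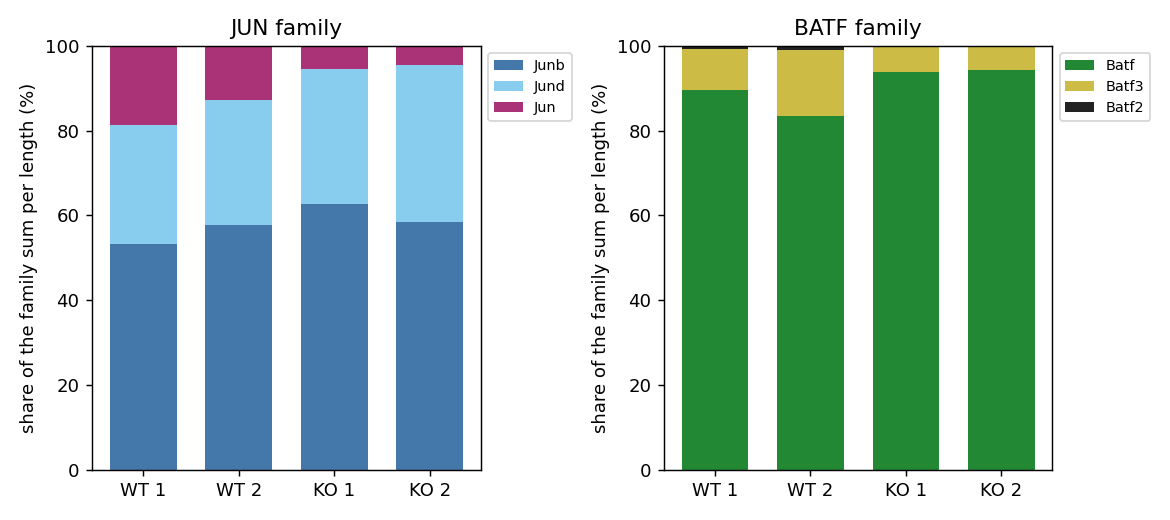
Share of each member in the summed RPKM of its family (percent, vertical axes from 0 to 100) in each library. Jun takes 18.6% and 12.7% of the JUN family in the WT-labelled and 5.43% and 4.57% in the KO-labelled libraries, and Batf takes most of the BATF family in all 4.

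The other genes of the network were taken from 6 lists. Of all 12752 genes tested, 2.39% were called higher and 1.56% lower, and the median log2 fold change over them was -0.0026. Of 19 partners that can pair with JUN or BATF proteins or share their sites, 15 were tested. Of these, 3 fell and 0 rose, with a median of -0.31. At an edgeR unadjusted p under 0.05, 5 stood lower, including the 3 called, and 1 higher. Fosl1, which encodes the FOS protein FRA-1, fell, with 27.4 and 17.4 CPM in WT-labelled against 5.16 and 7.17 CPM in KO-labelled libraries (log2 fold change -1.86 ± 0.32, edgeR adjusted p = 0.04). Atf3, a stress-induced partner of JUN, fell, with 29.1 and 34.7 CPM in WT-labelled against 13.8 and 14.7 CPM in KO-labelled libraries (-1.16 ± 0.20, adjusted p = 0.04). Mafk, a small MAF protein, fell by 1.05 on the log2 scale (adjusted p = 0.0455), but not with upper quartile factors (adjusted p = 0.0517).

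Among the FOS genes that were not called, Fosl2 (FRA-2) stood higher in both KO-labelled libraries, at 43.3 and 44.3 CPM against 76.5 and 57.3 CPM (0.61 ± 0.19, edgeR adjusted p = 0.109). Fos and Fosb were low and uneven, with 95 and 12 counts for Fos in WT-labelled against 64 and 89 in KO-labelled libraries, and 129 and 25 against 17 and 27 for Fosb. Bach2, a repressor that competes for AP-1 sites in T cells, stood at 0.20 ± 0.17 (adjusted p = 0.503).

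Of 7 partners at composite sites, 1 fell and 0 rose (median 0.27). Irf4, which binds with BATF and JUN proteins, fell, with 1141 and 910 CPM in WT-labelled against 372 and 502 CPM in KO-labelled libraries (-1.23 ± 0.20, edgeR adjusted p = 0.04). Irf8, the other IRF of this kind, stood at 790 and 473 CPM against 277 and 277 CPM (-1.19 ± 0.24, adjusted p = 0.0502). B cells also express both, and the summed B cell markers were lower in both KO-labelled libraries, at 532 and 473 CPM. Within that pair, Irf4 stood higher in replicate 2 and the B cell sum in replicate 1. The part of B cells in the Irf4 and Irf8 differences was not tested. The NFAT factors, which bind with AP-1 at cytokine genes, were on the other side of 0 and not called, Nfatc1 at 0.40, Nfatc2 at 0.59 and Nfatc3 at 0.27 on the log2 scale.

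In the JNK pathway, whose kinases phosphorylate c-Jun, 22 of 25 genes were tested, 1 rose and 1 fell (median -0.09). Map3k1, an upstream kinase, stood at 94.8 and 96.1 CPM in WT-labelled libraries and rose to 163 and 151 CPM (0.72 ± 0.15, edgeR adjusted p = 0.0494), but not when scaled by upper quartile (0.0536) or by library size alone (0.055). Gadd45b, a stress-induced gene of this list, fell, with 146 and 75.8 CPM in WT-labelled against 37.3 and 31.5 CPM in KO-labelled libraries (-1.69 ± 0.31, adjusted p = 0.043), but not with upper quartile factors (0.0527). Of the kinases themselves, Mapk8 (JNK1) stood at -0.49 ± 0.17 (adjusted p = 0.146) and Mapk9 (JNK2) at 0.18 ± 0.16 (adjusted p = 0.497), while Mapk10 had at most 4 counts in a library. Of 10 genes of JUN turnover, among them the ubiquitin ligases Itch and Fbxw7, edgeR called 0 and DESeq2 called 1 higher, with a median of -0.05. Unadjusted, 2 of the 10 stood on the higher side at p under 0.05 and 0 on the lower. Itch, which marks JUNB for degradation, stood at -0.05 ± 0.16 (adjusted p = 0.873).

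Of 18 cytokine and surface genes known to carry AP-1 sites, 17 were tested, 4 fell and 0 rose, with a median of -0.78. Of the 17, 15 had a log2 fold change below 0. At an edgeR unadjusted p under 0.05, 8 stood lower and 0 higher. The 4 that fell were Ifng, Il2, Il22 and Tnf. Of these, Tnf stood at 79.8 and 44.8 CPM in WT-labelled and at 16.1 and 18.2 CPM in KO-labelled libraries. The others included Il17a, the cytokine of T helper 17 cells, with 3066 and 2804 counts against 2424 and 660 (-0.78 ± 0.51, edgeR adjusted p = 0.375), where KO replicate 2 was the low library. Il10 stood at 0.12 ± 0.31 (adjusted p = 0.716) and Csf2 at -0.41 ± 0.38 (adjusted p = 0.539). Of 26 genes reported to depend on or to be bound by BATF or JUNB in T cells, 1 rose and 1 fell, with a median of 0.15. Pdcd1, which encodes the receptor PD-1, had 33.8 and 49.4 CPM in WT-labelled libraries and rose to 99.2 and 86.4 CPM (1.16 ± 0.22, adjusted p = 0.0441), but not when scaled by upper quartile (0.0527) or by library size alone (0.0515). The gene that fell was Irf4.

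The calls in these lists depended on the libraries. With either KO-labelled library left out, edgeR called 0 genes in all, so each of the calls named here was lost, with the spread then taken from the WT-labelled pair alone. Their log2 fold changes kept their sign, for example -2.60 and -2.36 for Ifng, -1.11 and -1.21 for Atf3 and -5.10 and -2.99 for Il22 without KO replicate 1 and without KO replicate 2. Without WT replicate 1 those of Fosl1 (adjusted p = 0.0571), Mafk (0.0664) and Map3k1 (0.0707) were lost.

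**Figure D4:**
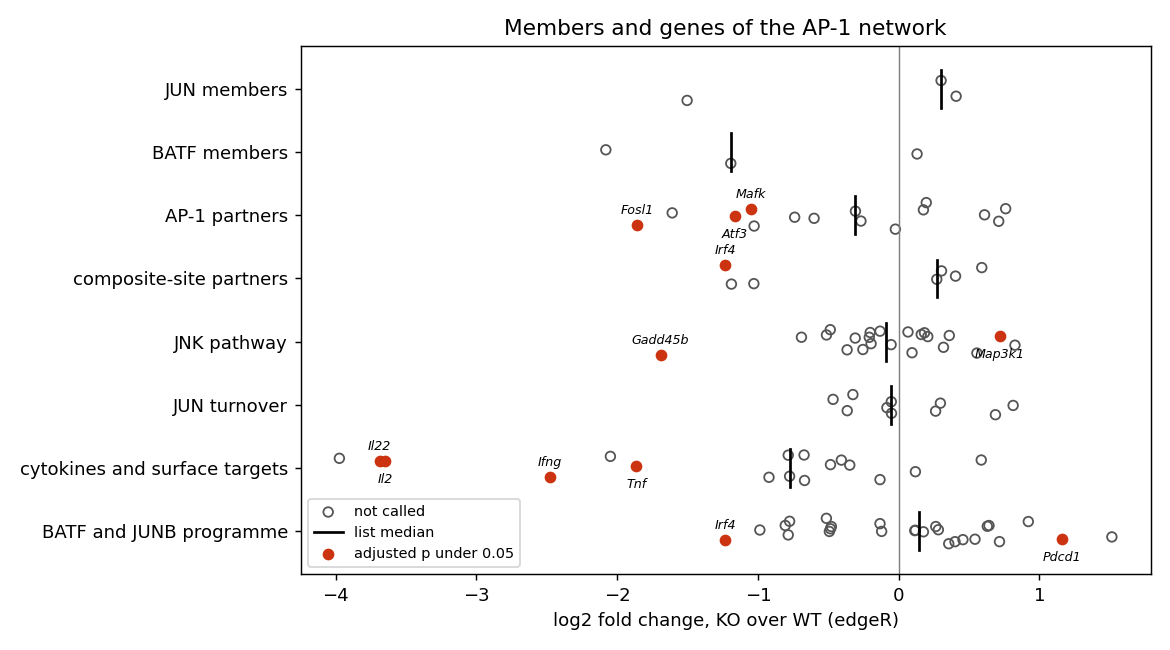
Log2 fold change of KO-labelled over WT-labelled libraries (horizontal axis) for each tested gene of the members and of 6 lists (rows, jittered vertically), with list medians as black bars. Filled points passed the adjusted p threshold of 0.05 and are named, and the members are all open points.

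The genes whose pattern over the 4 libraries was most like that of each member were sought among 8672 or 8673 other genes. These averaged at least 10 CPM, and gene models with Gm numbers or Rik in the symbol were left out. The distance was the root mean square difference of centred log2 CPM. For Jun the nearest were Mir155hg, the host transcript of the microRNA miR-155, at a distance of 0.0367, and Basp1 at 0.0529. The median distance from Jun was 0.817. Mir155hg stood at 64.1, 33.6, 20.7 and 14.3 CPM in WT replicates 1 and 2 and KO replicates 1 and 2, which were also the steps of Jun. For Junb the nearest were Snapc3 (0.0147) and Zfp268 (0.0176), for Jund Oga (0.0217) and Mta3 (0.0228), and for Batf Tm2d2 (0.0286) and Rmnd1 (0.0325). Batf2 and Batf3 had no neighbour as close. The nearest to Batf2 were Lif, a cytokine gene (0.191), and Myo19 (0.275), and the nearest to Batf3 were Socs2, an inhibitor of cytokine signalling (0.223), and Tnfrsf8, which encodes CD30 (0.277).

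Among the members themselves, Junb and Jund were the closest pair (0.124), followed by Junb and Batf (0.191), Jund and Batf (0.257) and Batf2 and Batf3 (0.368). Jun was at least 0.583 from every other member, the least from Batf2, and at 0.91 from Junb. These distances describe 4 libraries that share the same contrast and carry no test.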

How the data were processed

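RNA-seq of 4 libraries was used. The authors deposited whole-number read counts per gene symbol, 1 table per library, without scaling. Per the submitters' processing notes, their tools included featureCounts, Subread 2.0.1, DESeq2 1.30.1 and R 4.0.4, with mm10 as the genome. For aligner, annotation release, strand and multi-mapping the settings were not given in the sources used here, so reads of overlapping or antisense genes could not be told apart. In R 4.3.3, genes were kept by edgeR 4.0.16's filterByExpr (minimum count 10, minimum total 15), scaled by TMM (factors 0.968 to 1.027) and tested, KO over WT, by edgeR's quasi-likelihood test with Benjamini-Hochberg adjustment over all genes tested (threshold 0.05). CPM uses TMM-adjusted totals. DESeq2 1.42.0, limma-voom (limma 3.58.1), other factors and filters, a replicate term and each library left out were alternatives. The fit was tested on data simulated with these groups and library sizes. It called 28 of 96 genes changed 2-fold (29.2%), 77 of 97 changed 4-fold (79.4%) and 13 of 12291 unchanged (0.106%). Most 2-fold changes were thus missed. Exon lengths and positions are those of GENCODE M21 (GRCm38), counted from 1. Members and lists were chosen with earlier results of these data known. Named were all members, up to 5 called genes per list by adjusted p, the most abundant marker where a marker list is described, and the 2 nearest profiles per member (distance on log2 CPM, prior count 2); genes that were not called were chosen after their values were seen. Precision is limited by 2 libraries per group and, for Batf2, by counts.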

Additional observations from a re-analysis of the deposited data

How the results depend on the processing

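The log2 fold changes of Jun, Junb, Jund, Batf2 and Batf3 kept their sign under each alternative that gave a value, and Junb, Jund, Batf2 and Batf3 were not called in any. With a minimum count of 50, Batf2 was not tested. The legacy setting of the quasi-likelihood fit is the default of this edgeR version, so the fit with that setting off was run in its place. That fit and the RefSeq gene spans were chosen after seeing the data. Jun was called by DESeq2 (-1.50), with no filter (-1.51), with the newer quasi-likelihood fit (-1.50, adjusted p = 0.0431) and without WT replicate 2, so the number of members called lower was 1 there. Its adjusted p ran from 0.000206 to 0.297 over 13 alternatives. With each library left out in turn, the log2 fold change of Jun ran from -1.86 to -1.02 and that of Batf from -0.058 to 0.30, turning to -0.014 without WT replicate 1 and to -0.058 without KO replicate 1. The replicate numbers are shared between the groups, but the labels do not say that they pair libraries, and deviations from the group means of libraries with the same number correlated at only 0.0397. With a replicate block, Jun stood at -1.47 (adjusted p = 0.0117), 1 member was called lower, and 488 genes were called higher and 401 lower over all genes tested. The block called 2 composite-site partners lower, 1 gene of JUN turnover higher, and 2 genes higher and 2 lower in the BATF and JUNB list. Over all genes tested, 305 were called higher and 199 lower. DESeq2 called 854 and 779, the fit with no filter 737 and 682, the newer fit 317 lower and upper quartile factors 122 lower. With a library left out the counts ran from 0 to 1432 higher and from 0 to 1127 lower. edgeR called 0 genes without KO replicate 1, where unadjusted p-values under 0.05 numbered 760 (higher) and 845 (lower), and 0 without KO replicate 2, where they numbered 1082 and 1079. With a library left out, its group holds 1 library, assumed to vary like the other group, whose pair alone gives the spread. In the lists, DESeq2 called 5 AP-1 partners lower, 3 composite-site partners lower, 3 JNK pathway genes higher, 1 turnover gene higher, 8 cytokine and surface genes lower, and 2 higher and 3 lower in the BATF and JUNB list. With no filter, 3 composite-site partners were lower, 1 turnover gene higher, 8 cytokine and surface genes lower, and 3 higher and 2 lower in the BATF and JUNB list. Limma-voom and the newer fit each called 2 composite-site partners lower. Upper quartile factors called 0 JNK pathway genes in either direction, and 0 higher in the BATF and JUNB list. Library size only called 0 higher in both. With a library left out, calls ran from 0 to 8 lower for AP-1 partners, 0 to 1 higher and 0 to 3 lower for composite-site partners, 0 to 2 higher and 0 to 3 lower for the JNK pathway, 0 to 1 higher for turnover, 0 to 7 lower for cytokine and surface genes, and 0 to 5 higher and 0 to 3 lower for the BATF and JUNB list. The cause of these differences was not tested. With the length of the longest transcript the share of Junb was 61.3% and 66.2% and that of Jund 25.1% and 29.6% (WT-labelled and KO-labelled means), and with RefSeq spans 68.1% and 75.2% for Junb and 16.5% and 19.8% for Jund. The mean share of Jun ran from 13.6% to 15.7% in WT-labelled and from 4.29% to 5.00% in KO-labelled libraries over the 3 lengths.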
